A study of Lathyrus oleraceus with 4 samples.

Results

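The pea unigene that the study annotates as FUS3 is comp26137_c0_seq1, a transcript of 1651 bp assembled from the seed reads. It is 1 of the 77269 unigenes in the expression table, it was chosen by its identifier, and it is the only sequence of its Trinity component, so no other assembled form of it shares its reads within that component. Whole seeds of 2 field-grown cultivars, Zhewan 1 (a vegetable pea) and Zhongwan 6 (a grain pea), were sampled at 10 days after pollination (DAP), in the phase of cell division, and at 25 DAP, during filling. The name rests on the identifier printed in the panels of the study, since the table carries no annotation, and the sequence was not analysed here. Seeds of many plants were pooled for each sample. There are 4 libraries in all, 1 per cultivar at each stage. The methods describe biological replicates without saying how they entered these libraries. The differences given here therefore have no check by replicate libraries, and the intervals printed with them cover counting error only. The study also measured selected unigenes by qRT-PCR, in independently collected seeds with biological replicates. Those values were not used here.

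FUS3 (FUSCA3) is known from Arabidopsis as a transcription factor with a B3 DNA-binding domain. Together with LEC1, LEC2 and ABI3 it forms the network of regulators that moves the embryo from pattern formation to maturation. It binds the RY element in the promoters of seed storage protein genes, and it raises the balance of abscisic acid over gibberellin. Mutants in Arabidopsis lose reserves and desiccation tolerance. The study singled the pea unigene out for its increase in Zhewan 1, so its levels below are a description of the 4 libraries. Where a FUS3 change is said to pass a threshold, this places it among the unigenes treated alike and is no independent test of it.

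The FUS3 unigene was lowest in Zhewan 1 at 10 DAP and highest in the same cultivar at 25 DAP, with both Zhongwan 6 libraries in between. Levels are given as RPKM, which scales the reads to the length of the unigene and the total counted in its library, with exact Poisson 95% intervals. Zhewan 1 at 10 DAP had 783 reads, an RPKM of 9.47 (8.82 to 10.2). Zhongwan 6 at 10 DAP had 1991 reads, an RPKM of 19.8 (19.0 to 20.7). At 25 DAP the Zhongwan 6 library had 4988 reads, an RPKM of 42.6 (41.4 to 43.8), and the Zhewan 1 library had 19419 reads, an RPKM of 211 (208 to 214). No interval overlaps another, so that each step in this order was larger than the counting error.

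**Figure D1:**
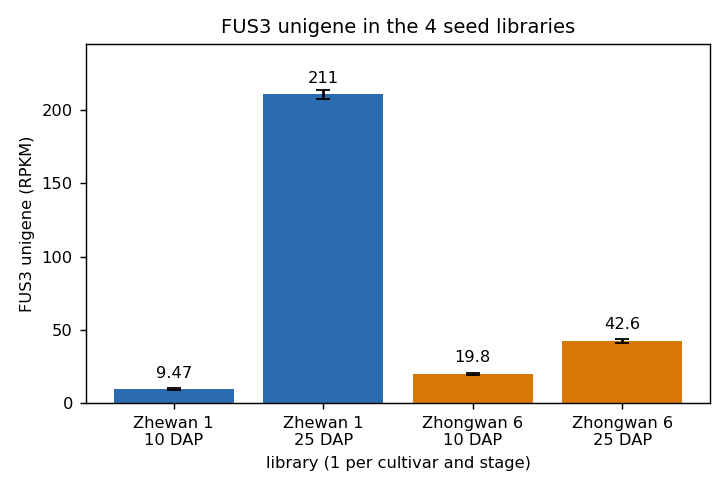
RPKM of the FUS3 unigene (y axis) in each of the 4 seed libraries (x axis), with blue bars for Zhewan 1 and orange bars for Zhongwan 6. Error bars are exact Poisson 95% intervals of the reads and show counting error only; the bar of Zhewan 1 at 25 DAP, at 211, stands above the other bars, which lie between 9.47 and 42.6.

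Placed among all unigenes of a library, FUS3 moved from rank 5518 of the 62317 unigenes with reads in Zhewan 1 at 10 DAP to rank 364 of 67065 at 25 DAP. It thus entered the most abundant 0.543% of the detected unigenes. The corresponding ranks in Zhongwan 6 were 3083 of 67976 and 1367 of 65954, the upper 4.54% and 2.07%. In each cultivar its rank thus improved with stage, and the largest step was in the vegetable pea.

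The libraries held 50086351 to 70912839 counted reads. Each of these totals is larger than the number of clean reads stated for that library, so some reads were counted more than once. The intervals and Fisher's test take each count as a separate read, and for that reason they can be too narrow. Their 100 most abundant unigenes took 44.0% to 57.2% of these reads, least in Zhewan 1 at 25 DAP, the library in which FUS3 was highest. Over the 49585 unigenes with reads in all 4 libraries, the stages (25 over 10 DAP) differed by a median log2 ratio of 0.55 for Zhewan 1 and of -0.22 for Zhongwan 6, and the cultivars (Zhongwan 6 over Zhewan 1) differed by a median of 0.43 at 10 DAP and of -0.38 at 25 DAP. The FUS3 changes are therefore also given after median-ratio scaling, in which each library is divided by its median ratio to the mean profile of these same unigenes. The part of this difference between the libraries in the FUS3 values was not tested beyond these scalings. Because whole seeds were sequenced, more cells that express FUS3 and more FUS3 transcript per cell cannot be told apart.

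How FUS3 changed from early development to seed filling was asked in each cultivar. In the vegetable pea it rose 22.3-fold from 10 to 25 DAP (95% exact Clopper-Pearson interval 20.7 to 23.9), a log2 ratio of 4.48. This passed the thresholds used for a change, which take the cutoffs of the study. They were an FDR of 0.001 or less when the reads were compared by Fisher's exact test, and an RPKM ratio of 2 or more. Such a test compares the libraries, not the stages. The study, whose own formula was not rerun here, reported far fewer changed unigenes at these cutoffs in each comparison. Of the 74253 unigenes tested in Zhewan 1, 20.7% were called higher at 25 DAP by the same thresholds, 9.42% were called lower, and 42.6% were at least 2-fold higher in RPKM with no test. With median-ratio scaling the balance turned, to 9398 unigenes called higher and 10205 called lower. After median-ratio scaling the log2 ratio of FUS3 was 3.92.

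In the grain pea the rise was 2.15-fold (2.04 to 2.27), a log2 ratio of 1.10 that passed the thresholds by a small margin. There, 9.08% of 74915 unigenes were called higher at 25 DAP, 16% were called lower, and 22.4% were at least 2-fold higher in RPKM alone. Median-ratio scaling gave a log2 ratio of 1.34. With an assumed coefficient of variation of 0.2 between replicate libraries the rise no longer passed, and its 95% interval would be 1.23 to 3.75. With 0.4 the interval would be 0.709 to 6.52, which includes no change. The grain pea thus had the smaller FUS3 rise, and its library at 10 DAP started from the higher RPKM, which is the divisor of that rise.

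Set against each other, the FUS3 rise in Zhewan 1 was 10.3 times that in Zhongwan 6 (9.47 to 11.3, counting error), a difference of 3.37 on the log2 scale. It was 2.58 with median-ratio scaling and 2.56 with TMM scaling (trimmed mean of M values, in edgeR). No replicate library exists to test this difference. If replicate libraries varied with an assumed coefficient of variation of 0.4, the 95% interval of the factor of 10.3 would be 2.15 to 49.8.

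Between the cultivars, FUS3 changed sides with stage. At 10 DAP the grain pea had 2.09 times the level of the vegetable pea (1.93 to 2.28), a log2 ratio of 1.07. At 25 DAP it had 0.202 times that level (0.196 to 0.209), a log2 ratio of -2.31, which makes the vegetable pea 4.95-fold higher (4.79 to 5.10). Both differences passed the thresholds. At 10 DAP 10.4% of 71326 unigenes were called higher in Zhongwan 6 and 3.07% lower, and 33.1% were at least 2-fold higher in RPKM alone. At 25 DAP 12.3% of 72654 unigenes were called lower in Zhongwan 6 and 4.93% higher, and 31.6% were at least 2-fold lower in RPKM alone.

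The difference at 10 DAP depended on the scaling. Its log2 ratio was 0.67 after median-ratio scaling, short of 2-fold, whereas that at 25 DAP was -1.92 and still past the thresholds. With an assumed coefficient of variation of 0.4 neither cultivar difference passed. The same order of cultivars, higher in Zhongwan 6 at 10 DAP and lower at 25 DAP past the thresholds at each stage, was found for 1697 unigenes, 2.54% of the 66711 with reads at both stages. The opposite order was found for 643 of the 66711, 0.964%. With median-ratio scaling 522 unigenes had the first order, that of FUS3, past the thresholds. FUS3 was not among these 522 since it missed 2-fold at 10 DAP.

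**Figure D2:**
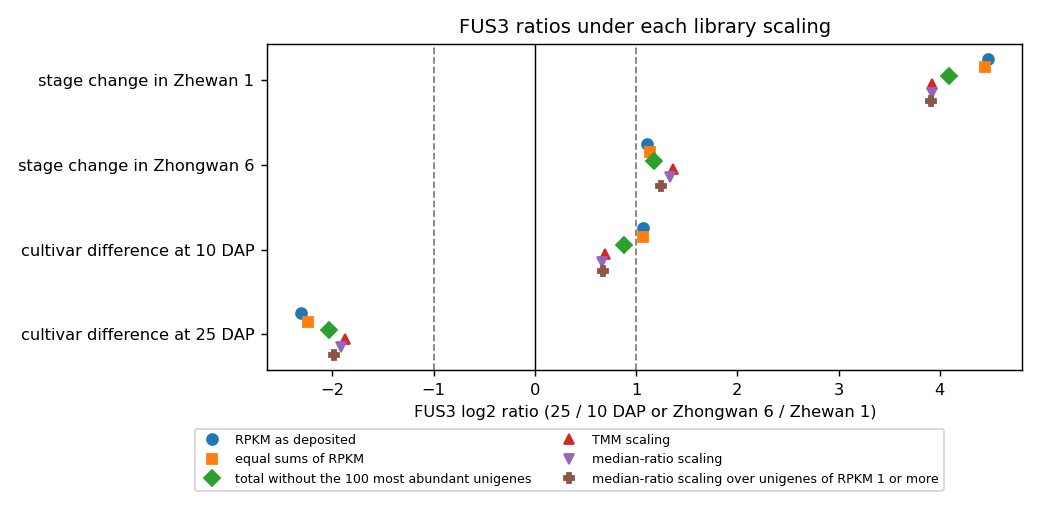
Log2 ratios of FUS3 (x axis) in the 4 comparisons (y axis) under 6 library scalings, each a marker; dashed lines mark 2-fold and the solid line no difference. The direction is the same under each scaling shown, the stage changes stay right of 1, and the difference at 10 DAP falls to between 0.67 and 0.88 under 4 of them.

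FUS3 was next placed among the 200 unigenes nearest to it in mean RPKM over the 4 libraries (61.9 to 80.7, against 70.6 for FUS3). For the stage change in Zhewan 1, 17 of the 200 had a larger log2 ratio, and the neighbours' median was 0.78 with quartiles of -0.48 and 2.42. In Zhongwan 6, 67 of the 200 had a larger ratio than FUS3, around a median of 0.51, so that its rise there stood less far from the neighbours than in Zhewan 1. Of these neighbours 90 were called higher at 25 DAP in Zhewan 1 and 72 in Zhongwan 6, which is 45.0% and 36.0%, above the shares over all unigenes.

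Between cultivars, FUS3 stood nearest to an edge of its neighbours at 25 DAP. At 10 DAP 20 of the 200 neighbours had a larger ratio of Zhongwan 6 to Zhewan 1, and at 25 DAP 5 had a lower one, around medians of 0.20 and -0.23. The difference between the stage changes of the cultivars was larger than that of FUS3 in 5 of the 200, with a neighbour median of 0.41. Past the thresholds at each stage, 6 of the 200 (3%) were higher in Zhongwan 6 at 10 DAP and lower at 25 DAP, as FUS3 was. The opposite order, past the same thresholds, was found for 10. Over all unigenes with reads at both stages, the shares of these orders were 2.54% and 0.964%. Some neighbours are sequences of the same component, so the 200 are not all separate genes. These places describe the 4 libraries and are not a test.

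**Figure D3:**
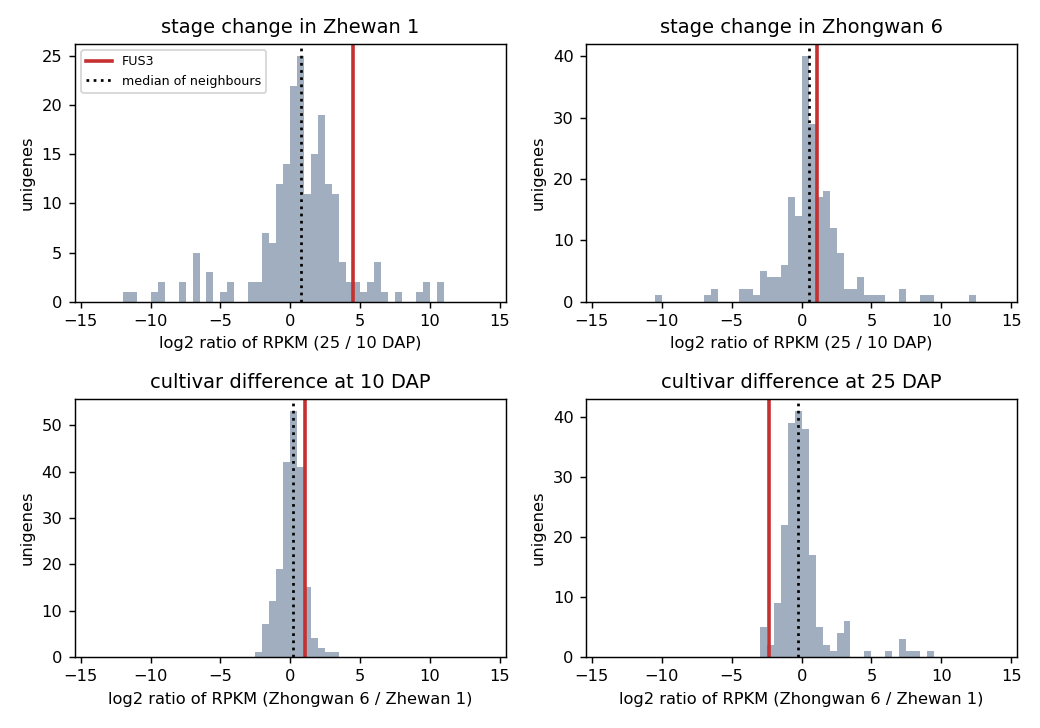
Histograms of the log2 RPKM ratio (x axis) of the 200 unigenes nearest to FUS3 in mean RPKM (y axis, number of unigenes), one panel for each comparison. The red line is FUS3 and the dotted line the neighbours' median; 1 or 2 neighbours per panel with no reads in a library are not drawn. FUS3 lies right of most neighbours for the stage change in Zhewan 1 (4.48), with 17 of the 200 above it. For the cultivar difference at 25 DAP (-2.31) it lies left of most, with 5 below it.

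Which unigenes follow the FUS3 profile was asked next. Likeness was measured as the Euclidean distance between log2 RPKM profiles over the 4 libraries, each centred on its mean, among 6350 other unigenes with at least 10 reads in every library and a mean RPKM of at least 10. With 4 points that share their libraries, this distance is a description and says nothing of shared function. The nearest were comp37397_c0_seq1 (distance 0.46), comp27049_c0_seq1 (0.47), comp19219_c0_seq1 (0.51), comp18321_c0_seq1 (0.53) and comp39163_c1_seq3 (0.53). No annotation of these 5 unigenes was used here.

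The nearest profile, that of comp37397_c0_seq1 (1778 bp), ran from an RPKM of 3.46 at 10 DAP to 57.5 at 25 DAP in Zhewan 1 and from 4.69 to 13.2 in Zhongwan 6. That of comp18321_c0_seq1 (1183 bp) ran from 6.75 to 128 in Zhewan 1 and from 17.6 to 41.3 in Zhongwan 6. All 5 rose 14.3-fold to 21.2-fold in Zhewan 1 and 2.08-fold to 3.43-fold in Zhongwan 6, and each had 0.141 to 0.323 times the Zhewan 1 level in Zhongwan 6 at 25 DAP. At 10 DAP comp18321_c0_seq1 was 2.60 times higher in Zhongwan 6 (2.33 to 2.92), past the thresholds as deposited but not with median-ratio scaling (0.98 on the log2 scale), and the other 4 were 1.36 to 1.54 times higher, short of them. The 5 were chosen by these same values, so their shared direction is a description. All 5 were below FUS3 in RPKM in each library, and the likeness is of shape only.

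In place 12 was cytoplasmic fructose-bisphosphate aldolase (comp36369_c1_seq2), a glycolytic enzyme, which was looked up after its place was seen. Its RPKM was 46.9 and 723 in Zhewan 1 and 77.7 and 273 in Zhongwan 6 at 10 and 25 DAP, a larger level than that of FUS3 with a similar order of the libraries. Sucrose synthase (comp38328_c0_seq2), which cleaves incoming sucrose in filling seeds, was in place 143. The other 4 listed filling enzymes were far from FUS3, in places 2656 (ADP-glucose pyrophosphorylase, comp40170_c0_seq1), 3522 (starch branching enzyme II, comp39207_c0_seq1), 3910 (granule-bound starch synthase 1, comp40911_c0_seq4) and 5247 (argininosuccinate synthase, comp30932_c0_seq2).

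**Figure D4:**
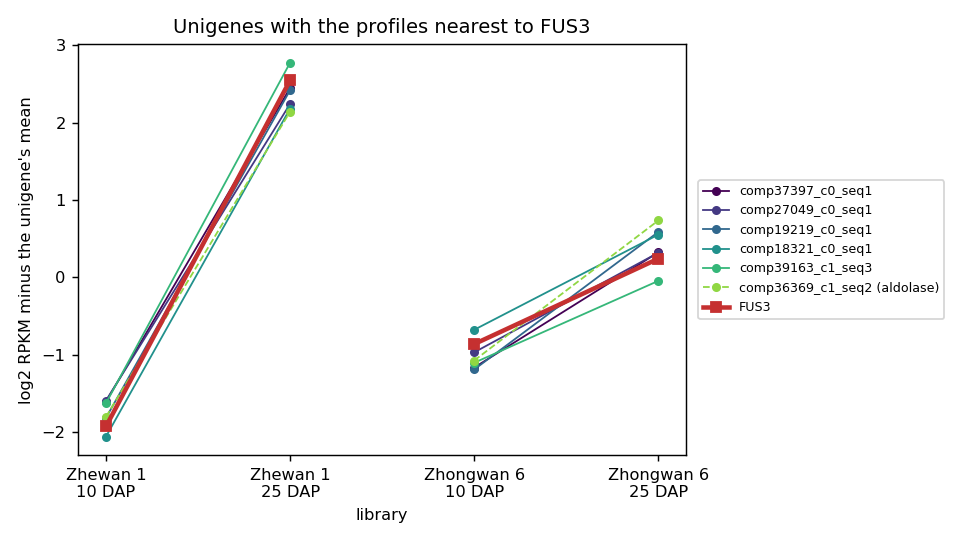
Log2 RPKM minus the unigene's own mean (y axis) in the 4 libraries (x axis) for FUS3 (red squares), the 5 unigenes with the nearest profiles and the aldolase in place 12 (dashed). Lines join the 2 stages of a cultivar; every unigene drawn peaks in Zhewan 1 at 25 DAP and is lowest in Zhewan 1 at 10 DAP.

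Other unigenes were listed from the part of the study's annotation that could be read, and from the identifiers that its panels print. Whether they act in seed maturation was not tested. Of 41 such unigenes in 7 lists, 31 could be matched to the table and 22 reached an RPKM of at least 1 in some library. Matched members read from the annotation all carry identifiers from comp1091 to comp13522, so their lists cover a part of the assembly only. Counts below are over all matched members, and they are read beside the shares over all unigenes given above. Over all unigenes tested the median log2 ratio was 0.69 for the stage change in Zhewan 1, -0.24 for that in Zhongwan 6, and 0.53 and -0.42 for the cultivar difference at 10 and 25 DAP.

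Among the B3 domain family, which includes FUS3, 5 of 9 listed unigenes could be matched. None of these 5 reached an RPKM of 1, their highest value being 0.548, against 9.47 or more for FUS3. The FUS3 identifier lies outside the range that could be read, so its place in the B3 family cannot be told from these 5. A single member, comp13335_c0_seq2, passed the thresholds in any comparison. Between 10 and 25 DAP its reads went from 28 to 6 in Zhewan 1 and from 37 to 25 in Zhongwan 6, a fall in the vegetable pea where FUS3 rose. Its component holds 2 sequences among which reads could be split. Pea LEC1, LEC2 and ABI3 were not analysed here.

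The other 4 transcription factors that the study names by identifier were taken from unigenes shown there for their differences, so their directions are not independent evidence. The heat stress transcription factor comp39335_c1_seq3, of the family that activates heat shock protein genes, rose 4.13-fold in Zhewan 1 (3.64 to 4.70) and 5.40-fold in Zhongwan 6 (4.90 to 5.95). The bHLH factor comp30742_c0_seq1 rose 6.71-fold (6.14 to 7.34) and 5.28-fold (4.88 to 5.72). The MYB unigene comp27361_c0_seq1 and the GRAS unigene comp21944_c0_seq2 fell in both cultivars, to 0.303 and 0.262 times in Zhewan 1 and to 0.194 and 0.179 times in Zhongwan 6.

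Per length, FUS3 was below the MYB and GRAS unigenes in both libraries at 10 DAP (for MYB, RPKM of 9.47 against 26.6 in Zhewan 1, and 19.8 against 45.6 in Zhongwan 6). At 25 DAP it had the highest RPKM of these 5 factors in each cultivar. The bHLH factor came next, with 50.4 in Zhewan 1 and 41.5 in Zhongwan 6, the latter within the counting interval of the FUS3 level (41.4 to 43.8). None of these 4 was lower in Zhongwan 6 at 25 DAP past the thresholds, and GRAS was higher there at each stage, 3.13-fold at 10 DAP and 2.13-fold at 25 DAP.

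Reserve and oil body unigenes, whose classes hold known targets of FUS3 in Arabidopsis, were too few for a reading of the list as a whole. Of the 6 matched, 0 passed the thresholds upwards and 2 downwards with stage in Zhewan 1 (20.7% and 9.42% over all unigenes). The list median was -0.02 (log2, over the 5 with reads in Zhewan 1), and the member without reads could not be called. In Zhongwan 6, 1 was called higher and 1 lower (9.08% and 16% over all unigenes), with a median of 0.38. With median-ratio scaling 2 were called higher and 0 lower in Zhongwan 6. An oleosin, which coats oil bodies (comp11102_c0_seq1), fell in Zhewan 1 from an RPKM of 14.2 to 6.08, and had 22.7 and 21.9 in Zhongwan 6. A caleosin-related unigene (comp13486_c0_seq1), of a calcium-binding oil body protein family, fell in Zhewan 1 from 35.7 to 16.0 and had 9.24 and 16.2 in Zhongwan 6.

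The unigene annotated as unknown seed protein like 1 (comp12618_c0_seq1), of a seed protein family first described in field bean, had the highest RPKM of the list in every library. Its RPKM was 168 and 165 in Zhewan 1 and rose 3.30-fold (3.10 to 3.50) in Zhongwan 6, from 98.2 to 324. A cupin superfamily unigene (comp13522_c0_seq1), of the fold that legumin and vicilin share, had 10.8 and 17.1 in Zhewan 1, and in Zhongwan 6 it fell from 19.8 to 9.68, although this fall missed 2-fold with median-ratio scaling (-0.80). Legumin, vicilin and convicilin, the main storage proteins of pea, were not analysed here, so the seed identity of the samples was checked on few genes.

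The matched late embryogenesis abundant unigenes, all annotated to the hydroxyproline-rich family, were mixed. Of the 4 matched, 1 was called higher and 2 lower at 25 DAP in Zhewan 1 (20.7% and 9.42% over all unigenes), with a list median of -0.38. In Zhongwan 6, 2 were called higher and 1 lower (9.08% and 16% over all unigenes), with a median of 0.75. After median-ratio scaling the calls were 0 up and 2 down in Zhewan 1, and 2 up and 0 down in Zhongwan 6. Opposite to FUS3 in each comparison of cultivars was comp12737_c0_seq1, annotated as a hydroxyproline-rich member. Its RPKM fell from 64.2 to 24.5 in Zhewan 1 and rose from 25.5 to 89.0 in Zhongwan 6. The other 3 were lower in level, with an RPKM of at most 5.46 (comp11049_c0_seq1), 2.16 (comp12804_c0_seq1) and 1.08 (comp12053_c0_seq1). All 4 matched members carry the hydroxyproline-rich annotation, a group for which no role in seed maturation is assumed here.

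On the hormone side, 3 of 4 listed unigenes were matched. A gibberellin-regulated family unigene (comp12452_c0_seq1) rose 18.9-fold in Zhewan 1 (12.9 to 28.7), from 28 to 589 reads, and 13.2-fold in Zhongwan 6 (9.51 to 18.7), from 39 to 598 reads. ABA-deficient 4 (comp13048_c0_seq1), named for an Arabidopsis gene of the carotenoid steps that supply abscisic acid, had 7 and 44 reads in Zhewan 1, a 5.64-fold rise (2.52 to 14.8). Its reads in Zhongwan 6 numbered 10 and 19 (ratio 1.63, interval 0.721 to 3.93), and at these read numbers no change could be detected. At 25 DAP it was 0.340 times as high in Zhongwan 6 (0.187 to 0.594), the direction that FUS3 showed, but median-ratio scaling left it short of the thresholds (-1.17). The gibberellin 2-oxidase 8 unigene (comp1334_c0_seq1), of an enzyme class that inactivates gibberellin, had 7 reads or fewer in each library and was called in no comparison.

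Factors of the bZIP and NF-Y families act beside B3 factors on seed promoters in Arabidopsis, where LEC1 is an NF-Y subunit. Of 7 listed, 4 were matched. In Zhewan 1, 2 of the 4 were called higher at 25 DAP and 1 lower (20.7% and 9.42% over all unigenes). In Zhongwan 6, 3 were called higher and 1 lower (9.08% and 16% over all unigenes). The 2 sequences of bZIP component comp13209_c0, among which reads of 1 gene could be split, rose in each cultivar. The longer, comp13209_c0_seq1, went from 9 to 96 reads in the vegetable pea, a ratio of 9.57 (4.84 to 21.6), and from 1 to 153 reads in the grain pea, a ratio with a wide counting interval (131, from 23.2 to 5220). An NF-Y subunit A10 unigene (comp11097_c0_seq1) fell in both cultivars, from 30 to 6 reads and from 117 to 2 reads.

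Of the 5 filling enzymes listed, 4 were called higher at 25 DAP in Zhewan 1 (20.7% over all unigenes) and 5 in Zhongwan 6 (9.08%). Their list medians were 4.53 and 4.86 (log2). This list was taken from panels of unigenes that the study picked as differentially expressed, so its direction is not independent evidence. The size of the FUS3 rise in the vegetable pea, 22.3-fold, was next to that of sucrose synthase, 23.1-fold (22.4 to 23.9), and the 2.15-fold rise in the grain pea was next to its 2.31-fold (2.23 to 2.39). Between cultivars at 10 DAP, sucrose synthase had 0.931 times the Zhewan 1 level in Zhongwan 6, short of the thresholds, whereas FUS3 had 2.09 times. ADP-glucose pyrophosphorylase (comp40170_c0_seq1), which supplies the glucosyl donor of starch synthesis, rose 45.1-fold and 29.0-fold. Granule-bound starch synthase 1 (comp40911_c0_seq4), which makes amylose, rose 5.47-fold in Zhewan 1 (5.35 to 5.58) and 41.6-fold in Zhongwan 6 (39.9 to 43.4), the larger rise being in the grain pea, opposite to FUS3. It had 0.185 times the Zhewan 1 level in Zhongwan 6 at 10 DAP and 1.41 times at 25 DAP, the latter short of the thresholds. This unigene and those of sucrose synthase and ADP-glucose pyrophosphorylase each belong to components of more than a single sequence, among which reads could be split. At 25 DAP 3 of the 5 were called lower in Zhongwan 6, the FUS3 direction, and 1 higher (12.3% and 4.93% over all unigenes). Among the 3 were sucrose synthase, with 0.0930 times the Zhewan 1 level, and ADP-glucose pyrophosphorylase, with 0.376 times. Starch branching enzyme II (comp39207_c0_seq1) went the other way between the cultivars, with 2.39 times the level in Zhongwan 6 at 25 DAP (2.32 to 2.46).

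Argininosuccinate synthase (comp30932_c0_seq2), an enzyme of arginine synthesis, shared the change of sides that FUS3 showed. It was 4.32-fold higher in Zhongwan 6 at 10 DAP (3.63 to 5.17) and 0.234 times as high there at 25 DAP (0.231 to 0.236), and both differences also passed the thresholds after median-ratio scaling. Its component holds 2 sequences among which reads could be split.

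**Figure D5:**
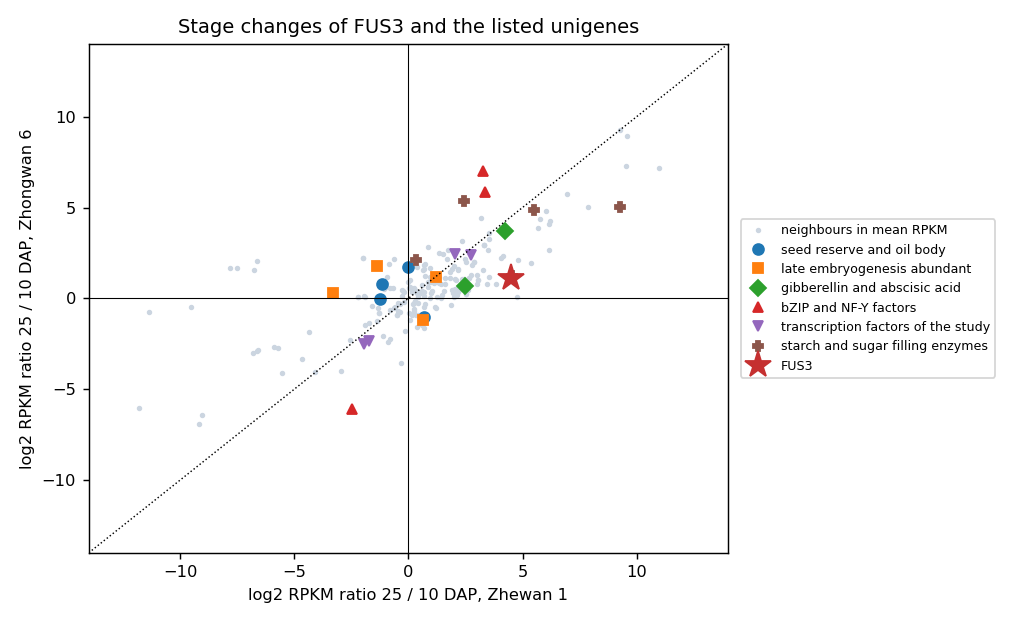
Log2 RPKM ratio of 25 to 10 DAP in Zhewan 1 (x axis) and Zhongwan 6 (y axis) for FUS3 (star), the 22 listed unigenes that reached RPKM 1 in some library (symbols by list) and the 200 neighbours of FUS3 in mean RPKM (grey; those with no reads in a library are not drawn). The dotted line marks equal change; FUS3, at 4.48 and 1.10, lies below it and covers the marker of sucrose synthase at 4.53 and 1.21.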

How the data were processed

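Whole seeds of 2 pea cultivars at 2 stages were compared from 4 libraries, 1 per group. The authors assembled the clean reads with Trinity, mapped each library to the unigenes with Bowtie 0.12.8 (credited to the submitters' processing notes too) and deposited read counts per unigene. The authors also deposited RPKM, the count divided by unigene length and counted total; recomputed here, all but 2 entries matched within 0.1%. Every value column was used.

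Ratios are of deposited RPKM. Changes were called by a 2-fold ratio and an FDR of 0.001 or less, adjusted by Benjamini-Hochberg over all unigenes that had reads in either library, from Fisher's exact test (two-sided), with no pseudocount or filter. Alternatives were other library scalings, pseudocounts, component sums, RPKM minima, neighbour numbers and the likelihood ratio test of edgeR at an assumed replicate coefficient of variation (0.2 and 0.4).

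Named unigenes were FUS3, listed unigenes with an RPKM of at least 1, and the 5 nearest profiles; comp13335_c0_seq2, comp1334_c0_seq1 and the aldolase were named after their values were seen. FUS3, the lists and the tests were chosen with earlier results of these data known. Of the identifiers, 0 match the pea RefSeq gene table, so no coordinates or sequences are given. Calculations used SciPy 1.17.1 and NumPy 2.4.6 in Python 3.11.15 with pandas 2.3.3, edgeR 4.0.16 in R 4.3.3, and matplotlib 3.10.9 for plots.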

Additional observations from a re-analysis of the deposited data

Results flagged for a closer look

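With 1 library per group, a difference between the stage changes of the cultivars leaves no residual degrees of freedom and was not tested. Each of these results is given because it went past the thresholds in opposite directions. The cultivar difference of FUS3 (Zhongwan 6 to Zhewan 1) had log2 ratios of 1.07 at 10 DAP and -2.31 at 25 DAP, which are 3.37 apart, and 0.67 and -1.92 with median-ratio scaling. Argininosuccinate synthase (comp30932_c0_seq2) had 2.11 and -2.10, which are 4.21 apart, and 1.71 and -1.71 with median-ratio scaling. The hydroxyproline-rich unigene comp12737_c0_seq1, of the late embryogenesis abundant list, had -1.33 and 1.86. Its stage changes were -1.39 in Zhewan 1 and 1.80 in Zhongwan 6, with a difference of -3.19 on either reading. Why these unigenes differ was not tested.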

How the results depend on the processing

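FUS3 kept its direction in each comparison under each library scaling. The other alternatives could not reverse it, since its component holds this sequence only, and pseudocounts and assumed coefficients of variation leave the sign. The FUS3 rise in Zhewan 1 kept its side of the thresholds under every alternative run, with log2 ratios of 3.91 to 4.48. With an assumed coefficient of variation of 0.2 the rise in Zhongwan 6 (1.10) and the difference at 10 DAP (1.07) no longer passed, and with 0.4 the difference at 25 DAP (-2.31) did not pass either. The difference at 10 DAP was also short of 2-fold with median-ratio scaling (0.67), with that scaling over unigenes of RPKM 1 or more (0.68, chosen after seeing the data), with TMM (0.69), without the 100 most abundant unigenes in the totals (0.88) and with a pseudocount of 1 (0.99). Under the first 4 of these scalings the difference between the stage changes was 2.58, 2.66, 2.56 and 2.91. Neighbours in mean log2(RPKM + 1) put FUS3 at percentile 98.0 instead of 91.5 for the stage change in Zhewan 1 and 77.0 instead of 66.5 in Zhongwan 6. With 50 neighbours it stood at 98.0 instead of 90.0 at 10 DAP and at 0 instead of 2.5 at 25 DAP.

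The counts of called unigenes, in the order Zhewan 1 stage, Zhongwan 6 stage, cultivars at 10 DAP and cultivars at 25 DAP, were 22349, 18799, 9579 and 12513. By 2-fold alone they were 48236, 42437, 32959 and 34762, by FDR and 4-fold 13250, 11517, 3607 and 6255, and with a coefficient of variation of 0.4 they were 4400, 4157, 221 and 1696. Of the called unigenes 68.7%, 36.2%, 77.1% and 28.6% were higher, and with median-ratio scaling 47.9%, 46.4%, 49.2% and 52.1%. The change of sides between cultivars, counted after seeing the data, was found in 522 unigenes with median-ratio scaling and 606 with that over unigenes of RPKM 1 or more, against 1697. An additive fit of stage and cultivar, which leaves 1 residual degree of freedom, was not run. No replicate could be left out, as each group is 1 library, so the spread between replicate libraries is unknown. FUS3 had at least 783 reads in each library, and depth was not what limited its values.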
